A study of Mus musculus with 214 samples.

Results

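The livers described here come from the NDMA arm of a mouse study, 1 day after the second of 2 doses. They comprise 8 Mgmt-/- and 8 WT livers, sequenced together in run 191212Eng, out of 214 labelled samples in the series, 213 of which carried values. They were chosen by genotype, treatment, collection day and run alone. The 16 saline livers of the same run and day, 8 of each genotype, served as the background for the genotype difference. WT mice were RaDR+/+;GPT+/+ and Mgmt-/- mice were RaDR+/+;GPT+/+;Mgmt-/-, so that both genotypes carried the RaDR reporter of homologous recombination and the GPT reporter of point mutation. All were C57BL/6. NDMA mice received 3.5 mg/kg at 8 days of age and 7 mg/kg at 15 days of age by intraperitoneal injection, a total of 10.5 mg/kg, and controls received saline. Each of the 4 groups held 4 males and 4 females, and each liver was 1 library of 3′ tags. Mgmt was absent from every cell of the knockout animals and not only from hepatocytes. Whole litters were assigned to a treatment and the labels used here do not give the litter, so litter and group cannot be told apart.

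NDMA is a methylating agent that the liver itself activates, mainly through the cytochrome P450 Cyp2e1, which is expressed around the central vein. One of the adducts it leaves in DNA is O6-methylguanine, which mispairs during replication. MGMT transfers the methyl group to one of its own cysteines and so restores the base directly, after which the protein is degraded. In its absence the mispair persists and is met by mismatch repair, which can turn it into strand breaks and signals for arrest and cell death.

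The libraries held between 1672314 and 4875436 reads in Mgmt-/- NDMA livers (median 2653765) and between 2305115 and 4684400 in WT NDMA livers (median 3565012.5). Saline libraries spanned 2577847 to 4223946 reads in Mgmt-/- and 2064679 to 3741152 in WT mice. Levels below are in RPM, reads per 1000000 reads of a library after scaling its total by its TMM factor, which equalizes the bulk of genes between libraries. The TMM factors were 1.01 to 1.34 in Mgmt-/- NDMA livers and 0.932 to 1.18 in WT NDMA livers. Levels are compared between groups and not between genes. Fold changes are log2 values of Mgmt-/- over WT from edgeR, with their standard error (SE) and a Benjamini-Hochberg adjusted p over all 10047 genes tested. A gene was called when its adjusted p was under 0.05 and its absolute log2 fold change over 0.58. The libraries carried the hepatocyte markers Alb, Apoa1, Ttr, Serpina1c and Fgb at a summed 100347 to 162452 RPM in WT NDMA and 69912 to 127377 in Mgmt-/- NDMA livers. In all 32 libraries the X-linked Xist and the Y-linked Ddx3y matched the labelled sex.

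Mgmt itself (chr7:136894614-137130266, GRCm38) came first, as a check of the genotype. WT NDMA livers held 22.6 to 86.9 RPM of Mgmt (median 58.5) and WT saline livers 27.2 to 46.1 (median 32.9). Mgmt-/- livers held 0 to 4.40 under NDMA (median 1.05) and 0 to 4.20 under saline (median 0.361). In reads, no Mgmt-/- library had more than 12 and no WT library fewer than 62, so the genotypes did not overlap. Mgmt was lower by a log2 fold change of -5.65 ± 0.44 under NDMA (adjusted p = 1.8e-10) and of -5.46 ± 0.47 under saline (adjusted p = 3.0e-09). The labels used here do not say which exon was removed, so a 3′ tag checks the level of the transcript end and not the deletion.

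Few genes separated the genotypes in saline-treated mice. Under saline, Mgmt was the 1 gene called of 10047 (0.00995%), with 362 genes at an unadjusted p under 0.05. Under NDMA 126 genes were called (1.25%), of which 59 were higher in Mgmt-/- livers (0.587%) and 67 lower (0.667%). Before adjustment 1290 genes had a p under 0.05. The median log2 fold change over all genes was 0.01 in both comparisons. Subtracting the saline difference from the NDMA difference, as an interaction term, called 14 genes (0.139%), 6 higher (0.0597%) and 8 lower (0.0796%). Of these 14, 12 were also called under NDMA in the same direction. Only 1 of the 14, Spp1, was called in every fit that left out 1 liver. When libraries were scaled to their totals in place of TMM factors, the median of all genes moved to 0.15 under NDMA and the calls were 128 higher and 34 lower. The interaction then had 34 higher and 11 lower calls around an all-gene median of 0.14. The balance of higher to lower calls thus depends on the scaling, and the values below are relative to the TMM centre. The plot of both genotype differences shows the called genes along the NDMA axis.

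**Figure D1:**
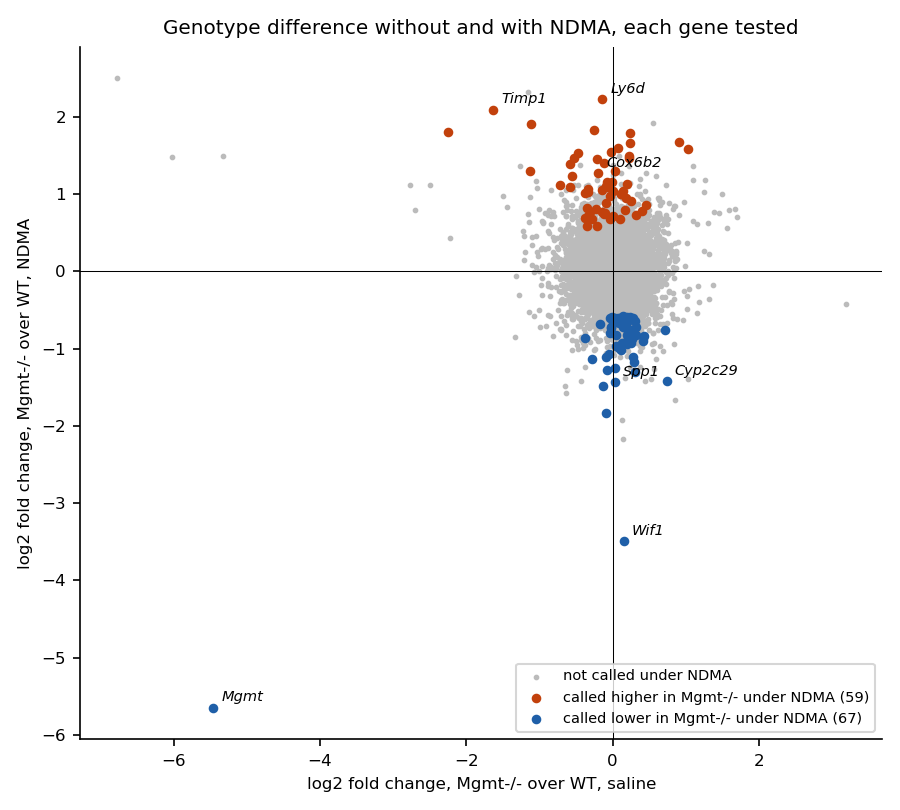
Log2 fold change of Mgmt-/- over WT livers under saline (x) and under NDMA (y) for each of the 10047 genes tested, n = 8 livers per group. Red points are the 59 genes called higher and blue points the 67 called lower under NDMA, and Mgmt lies at -5.46 on x and -5.65 on y.

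Spp1, which encodes osteopontin, a secreted phosphoprotein made by biliary epithelium and by injured liver, separated the genotypes most firmly after Mgmt. Its levels in the 8 WT NDMA livers were 159, 216, 306, 217, 266, 300.3, 146 and 163 RPM. In the 8 Mgmt-/- NDMA livers they were 86.2, 110.3, 45.0, 58.8, 92.5, 59.3, 98.4 and 106. The lowest WT liver thus stood above the highest Mgmt-/- liver. The saline groups lay together, at 109 to 145 in WT and 88.8 to 182 in Mgmt-/- livers. The mean was 2.70-fold lower in Mgmt-/- livers under NDMA (log2 fold change -1.44 ± 0.17, adjusted p = 1.3e-06) against a saline difference of 0.03. The interaction was -1.46 ± 0.24 (adjusted p = 0.0037), since Spp1 rose with NDMA in WT livers (0.79) and fell in Mgmt-/- livers (-0.67). Per 1000000 reads of the unscaled total, Spp1 was at 59.4 to 127 in Mgmt-/- NDMA and 146 to 294 in WT NDMA livers, still without overlap. The gene lies at chr5:104435118-104441050. Spp1 was also 1 of the 6 cholangiocyte markers, whose summed level was 152 to 313 in WT NDMA and 53.4 to 119 in Mgmt-/- NDMA livers. Spp1 was the most abundant of them, and only 2 of the 6 passed the filter on low counts.

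The other genes whose difference from saline was called lower were mostly made by hepatocytes. Cyp2c29, a P450 of drug oxidation, was at 663 to 2328 RPM (median 1184) in WT NDMA and at 136 to 696 (median 494) in Mgmt-/- NDMA livers. Of the Mgmt-/- NDMA livers, 7 of 8 lay below every WT NDMA liver. Its log2 fold change was -1.42 ± 0.30 under NDMA (adjusted p = 0.015) and 0.74 under saline, which gave an interaction of -2.15 ± 0.43 (adjusted p = 0.039). Cyp2c29 did not pass the test for an NDMA effect in WT livers (-0.16) and fell in Mgmt-/- livers (-2.31). Cyp2b13, a related drug-oxidizing P450, followed at 24.7 to 42.1 in WT NDMA and 2.99 to 25.0 in Mgmt-/- NDMA livers (log2 fold change -1.18 ± 0.24, interaction -1.47). Again 7 of 8 Mgmt-/- livers lay below every WT liver.

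Slc10a1, the sodium-dependent bile acid uptake carrier of the hepatocyte, was at 378 to 855 in WT NDMA and 227 to 439 in Mgmt-/- NDMA livers (log2 fold change -0.80 ± 0.16, interaction -1.09). Gpld1, a phospholipase secreted by the liver that cleaves lipid anchors of membrane proteins, was at 94.6 to 213 and 55.3 to 109.9 (-0.71 ± 0.15, interaction -1.04). Klkb1, plasma prekallikrein, was at 184 to 292 and 86.2 to 194 (-0.64 ± 0.13, interaction -0.85). In each of these 3 genes the genotypes overlapped by some livers under NDMA. All 3 fell with NDMA in Mgmt-/- livers, by 1.25, 1.39 and 1.0 on the log2 scale, and none passed the test in WT livers. Without the Mgmt-/- NDMA liver D389094 Klkb1 was at -0.56, under the fold threshold. Fam13a went another way. It rose in WT livers with NDMA (1.05, levels 15.3 to 45.0 against 7.44 to 13.4 under saline) and did not pass the test in Mgmt-/- livers (-0.41), with an interaction of -1.46, and its genotype difference under NDMA was not called without D389094 (-0.81, adjusted p = 0.0676). Cyp2a12, a further P450, had an interaction of -1.02 and rose in WT livers alone (0.89), while its difference under NDMA did not pass the test (-0.45, adjusted p = 0.16).

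On the higher side of the interaction, Cox6b2, an isoform of a cytochrome c oxidase subunit best known from testis, stood out. It lay between 2.09 and 7.98 RPM in every saline liver of both genotypes. Under NDMA it lay between 34.6 and 54.4 in WT and between 77.1 and 183 in Mgmt-/- livers, so that the genotypes did not overlap. It rose in both, by 3.15 in WT and 4.63 in Mgmt-/- livers, and the genotype difference under NDMA was 1.27 ± 0.18 (adjusted p = 3.5e-05). The interaction was 1.47 ± 0.31 (adjusted p = 0.039). Spink1, a secreted trypsin inhibitor, lay at 51.6 to 158 in WT NDMA and 141 to 629.8 in Mgmt-/- NDMA livers, 7 of which stood above every WT liver. Its difference was 1.53 ± 0.29 and its interaction 2.00 ± 0.43.

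S100a6, a small calcium-binding protein of injured epithelium, was at 24.4 to 43.7 in WT NDMA and 29.3 to 174 in Mgmt-/- NDMA livers (1.12 ± 0.26, interaction 1.84). Pdrg1, a gene regulated by p53 and DNA damage, did not pass the test for NDMA in WT livers (0.01) and rose in Mgmt-/- livers (1.08). Its levels under NDMA were 24.3 to 56.6 and 45.0 to 87.2. Fabp2, a fatty acid binding protein, showed the same order with a smaller step, at 333 to 526 in WT NDMA and 405 to 810.2 in Mgmt-/- NDMA livers (0.59 ± 0.15). Without D389094 Fabp2 (0.53, adjusted p = 0.105) and S100a6 (0.79, adjusted p = 0.0716) were not called. Slc25a30, a mitochondrial carrier, had the largest interaction of the 14 (2.29) but did not pass the test under NDMA (0.84, adjusted p = 0.23). Under saline WT livers held 13 to 70.7 and Mgmt-/- livers 7.68 to 37.4, a difference of -1.45 that did not pass the test (adjusted p = 0.47).

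**Figure D2:**
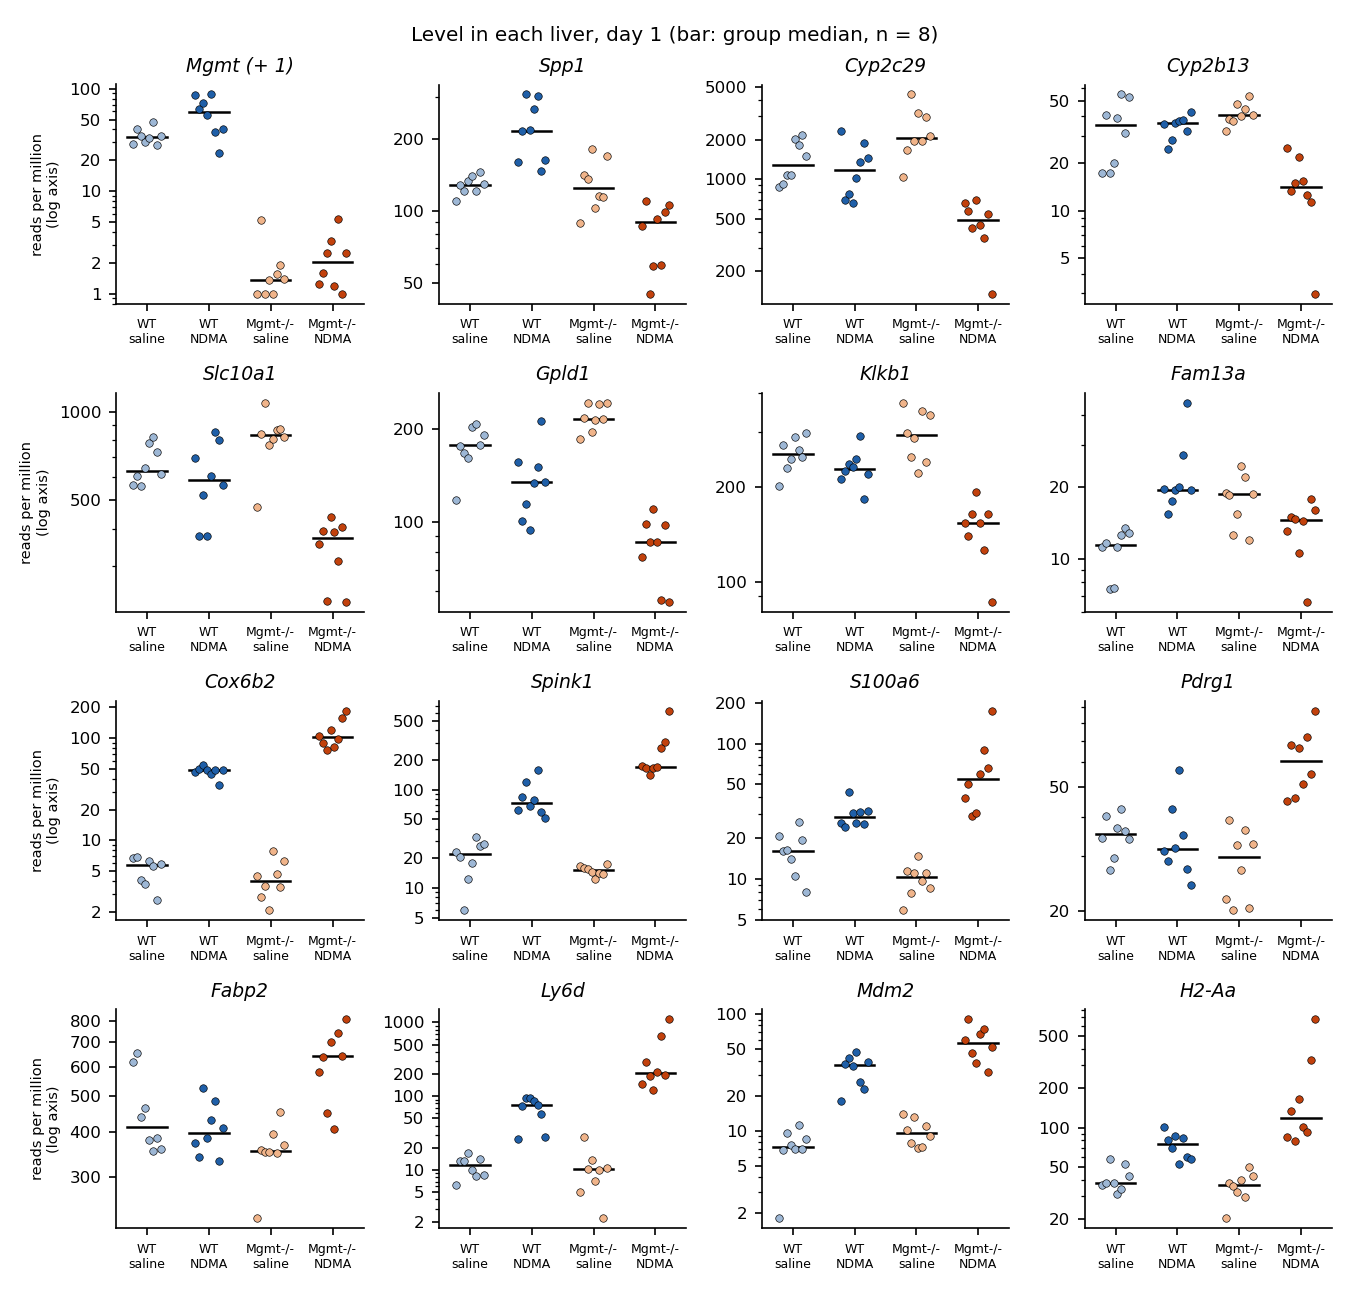
RPM (log axis) of 16 genes in each liver of the 4 groups, n = 8 per group. Each point is a liver and each bar the group median, and 1 was added to Mgmt so that its zeros can be drawn. The NDMA groups of the 2 genotypes do not overlap for Mgmt, Spp1, Cox6b2, Ly6d.

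Several cytochrome P450s and other hepatocyte genes were lower. Of 22 xenobiotic P450s tested, 5 were lower in Mgmt-/- livers under NDMA and none higher, where 0.667% and 0.587% of all genes were. Their median log2 fold change was -0.60 beside 0.01 over all genes. The 5 were Cyp2c29, Cyp2b13, Cyp3a25 (-0.77 ± 0.20), Cyp2d22 (-0.61 ± 0.15) and Cyp2d26 (-0.59 ± 0.12). Without the Mgmt-/- NDMA liver D389094 only Cyp2c29 and Cyp2b13 of the xenobiotic cytochrome P450s were called (median -0.52). The summed level of the list was 6855 to 15108 in WT NDMA and 4222 to 9471 in Mgmt-/- NDMA livers, and the median of the list under saline was 0.26. Of these 22, 3 fell and 2 rose with NDMA in WT livers, whereas 14 fell and 1 rose in Mgmt-/- livers. Over all genes tested, 524 rose (5.22%) and 402 fell (4.0%) in WT livers, and 876 rose (8.72%) and 890 fell (8.86%) in Mgmt-/- livers.

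Over all genes tested 0.667% were called lower and 0.587% higher, with a median log2 fold change of 0.01. Of 14 genes of bile acid synthesis and transport, 3 were lower and none higher (median -0.34). Besides Slc10a1 these were Slc27a5, which activates bile acids for conjugation (356 to 856 in WT NDMA against 213 to 413, -0.86 ± 0.19), and Cyp8b1, the sterol hydroxylase of cholic acid synthesis (126 to 209.5 against 64.8 to 141, -0.80 ± 0.18). Of the Mgmt-/- NDMA livers, 7 of 8 lay below every WT NDMA liver for Cyp8b1. Without D389094 Slc27a5 was no longer called (-0.80, adjusted p = 0.0532). Of 18 periportal hepatocyte genes 2 were lower and none higher, with a median of -0.57 and a log2 fold change above 0 in 1 of 18. Otc, the urea cycle enzyme ornithine transcarbamylase, was at 568 to 950.2 in WT NDMA and 262 to 644 in Mgmt-/- NDMA livers (-0.61 ± 0.14). Hal, histidine ammonia-lyase, rose with NDMA in WT livers (1.02) and did not pass the test in Mgmt-/- livers (-0.29), with a genotype difference of -0.90 ± 0.24. Without D389094 neither was called (adjusted p = 0.0532 for Otc and 0.115 for Hal), and the list median was -0.50. Scaling to library totals also ended both calls among the periportal hepatocyte genes (median -0.45).

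The pericentral genes, which lie where NDMA is activated, had 1 call between genotypes. Of 19 tested, 14 fell in WT livers with NDMA and 18 in Mgmt-/- livers, where 4.0% and 8.86% of all genes fell. Only Cyp2c29 was called between genotypes (median -0.17). In run 200803Eng, which held other mice, the median of the 17 members tested was -1.21 with all libraries as labelled. It was -0.14 without 2 libraries labelled WT NDMA, D209072 and D209077, whose sex genes contradict their labels. Cyp2e1 fell in both genotypes (-2.63 in WT and -3.57 in Mgmt-/-), with a genotype difference of -0.66 ± 0.47 under NDMA (adjusted p = 0.62). Glul, the glutamine synthetase of the innermost pericentral hepatocytes, fell by 2.23 and 2.53 and had a genotype difference of -0.18. The 5 hepatocyte markers were called in neither direction between genotypes (median -0.43), while 4 of them fell with NDMA in Mgmt-/- livers, and in WT livers 1 fell and 1 rose. In bulk tissue fewer cells of a type and less RNA per cell cannot be told apart.

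The p53 targets were higher in Mgmt-/- livers in part. Of 19 targets of arrest and feedback, 13 rose with NDMA in WT livers and 15 in Mgmt-/- livers, where 5.22% and 8.72% of all genes rose. Between genotypes under NDMA 2 of the 19 were called, both higher, where 0.587% of all genes were called higher. The list had a median log2 fold change of 0.47, with 16 of 19 above 0. Psrc1, a spindle microtubule protein, went from at most 2.16 RPM in saline livers to 3.80 to 10.0 in WT NDMA and 12.6 to 24.4 in Mgmt-/- NDMA livers. These NDMA groups did not overlap (1.40 ± 0.31, adjusted p = 0.014). Mdm2, the ubiquitin ligase that removes p53, was at 18.2 to 47.0 in WT NDMA and 32.2 to 90.6 in Mgmt-/- NDMA livers (0.78 ± 0.21, adjusted p = 0.047). It was called in 20 of 32 fits that each left out 1 liver, and not without D389094 (0.81, adjusted p = 0.0722).

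Cdkn1a, the p21 cell cycle inhibitor, rose strongly in both genotypes (3.80 in WT and 4.57 in Mgmt-/-), and its genotype difference was 0.44 ± 0.18 with an adjusted p of 0.24. Ccng1, a p53-induced cyclin, differed by 0.47 (adjusted p = 0.23), and Phlda3, a p53-induced inhibitor of Akt, by 0.55. Of 11 p53 targets of cell death, 4 rose in WT livers and 8 in Mgmt-/- livers, where 5.22% and 8.72% of all genes rose. Pmaip1, the BH3-only protein Noxa, was the 1 called between genotypes, at 1.24 to 8.48 in WT NDMA and 5.23 to 21.2 in Mgmt-/- NDMA livers (1.31 ± 0.30, adjusted p = 0.018). Without D389094 it was at 1.25 (adjusted p = 0.056). Bax, the mitochondrial pore former, rose by 2.02 and 2.64 and differed by 0.49 (adjusted p = 0.16).

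Genes of injured epithelium formed the list with the most called members, 8 of 21 higher and none lower. This list, like the others, was chosen with earlier results of these data known, so its counts are a description. Over all genes tested 0.587% were called higher and 0.667% lower. The list had a median log2 fold change of 0.81, with 20 of 21 above 0. Ly6d, a surface protein of the Ly6 family, differed most. Its levels were 6.24 to 16.9 in WT saline and 2.22 to 28.0 in Mgmt-/- saline livers. Under NDMA they were 26.3 to 94.7 (median 75.1) in WT and 120.0 to 1105 (median 204) in Mgmt-/- livers. The NDMA groups did not overlap (2.23 ± 0.41, adjusted p = 0.0086), while the interaction, at 2.37 ± 0.62, did not pass (adjusted p = 0.097). Tubb2a, a beta tubulin, was at 94.1 to 136 in WT NDMA and 158 to 384 in Mgmt-/- NDMA livers, without overlap (1.04 ± 0.15, adjusted p = 7.5e-05). Tubb2a was called higher with NDMA in Mgmt-/- livers (0.83) and was not called in WT livers (-0.06). Its interaction was not called.

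The related tubulin Tubb6 was at 21.3 to 49.1 and 39.2 to 87.7 (0.96 ± 0.20). S100a10, the annexin A2 partner, was at 158 to 232 in WT NDMA and 225 to 928 in Mgmt-/- NDMA livers (0.98 ± 0.20). The galectins Lgals3 (0.82 ± 0.21) and Lgals1 (0.68 ± 0.18), S100a11 (1.01 ± 0.26) and S100a6 completed the 8. With NDMA 13 of the 21 rose in WT livers and 19 in Mgmt-/- livers, where 5.22% and 8.72% of all genes rose. The highest summed level of the genes of injured epithelium was 8140 in the Mgmt-/- NDMA liver D389094, and the next was 5566. Without that liver 4 of the 8 were called, Ly6d, S100a10, Tubb2a and Tubb6, and the list median was 0.52.

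Of the stress genes 2 were called higher. Ddit3, the transcription factor CHOP of the unfolded protein response, was at 6.83 to 12.5 in WT NDMA and 13.1 to 31.9 in Mgmt-/- NDMA livers, without overlap (1.13 ± 0.21, adjusted p = 0.0045). It did not pass the test for NDMA in WT livers (0.53) and rose in Mgmt-/- livers (1.47). Nupr1, a stress-induced chromatin protein, was at 2.92 to 9.83 and 9.69 to 20.9 (1.16 ± 0.24). These were the 2 called of 17 genes of the integrated stress and unfolded protein responses, where 0.587% of all genes were called higher. The list had a median of 0.19, with 11 of 17 above 0.

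Of 17 Nrf2 targets and metallothioneins, 2 were higher and none lower (median 0.23). Over all genes tested 0.587% were called higher and 0.667% lower. Cbr3, a carbonyl reductase, was at 3.13 to 10.6 in WT NDMA and 6.90 to 58.8 in Mgmt-/- NDMA livers (1.83 ± 0.32, adjusted p = 0.0025), and Srxn1, sulfiredoxin, at 10.3 to 27.5 and 16.1 to 68.8 (1.10 ± 0.25). Without D389094 Srxn1 was at 0.90 (adjusted p = 0.0665). Of the 21 glutathione transferases only Gsta1 was called. It was at 0 to 0.372 in all saline livers, at 6.25 to 26.0 in WT NDMA and at 7.35 to 98.2 in Mgmt-/- NDMA livers (1.47 ± 0.37), and without D389094 its difference was 0.97 (adjusted p = 0.154). Its sequence is shared with a close paralog, so the split of reads between the copies is uncertain. Elovl6, a fatty acid elongase, was the 1 called of 11 genes of fatty acid synthesis, at 2.19 to 5.09 in WT NDMA and 6.10 to 14.5 in Mgmt-/- NDMA livers, without overlap (1.58 ± 0.33).

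Genes of MHC class II presentation, which antigen-presenting cells use to display peptides to helper T cells, were called higher in part. None was called without 1 liver, D389094. Of 7 tested, 3 were called higher and none lower, with a median of 1.09, where 0.587% of all genes were called higher. In run 200803Eng the median of 7 members tested was 0.16, and -0.15 without D209072 and D209077. H2-Aa was at 52.9 to 102 in WT NDMA and 78.8 to 677 in Mgmt-/- NDMA livers (1.46 ± 0.33), Cd74, the invariant chain, at 7.44 to 21.7 and 11 to 167 (1.59 ± 0.35), and H2-Eb1 at 7.04 to 42.1 and 27.3 to 107 (1.24 ± 0.28). The summed MHC class II presentation level, of which Ctss was the most abundant gene, was 215 to 421 in WT NDMA livers. In Mgmt-/- NDMA livers it was 279 to 1781, with the highest value in D389094 and the next, 863, in D389088. Without D389094 none of the 7 was called and the median was 0.63, with H2-Aa at 0.92 (adjusted p = 0.059), Cd74 at 1.04 (adjusted p = 0.0665) and H2-Eb1 at 1.03 (adjusted p = 0.07).

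The same liver stood apart in other marker sums. D389094 held the highest summed recruited monocyte markers, 1479 against 186 to 685 in the other Mgmt-/- NDMA livers and 203 to 388 in WT NDMA livers, with Lyz2 as the most abundant gene. It held the highest NK cell markers, 205 against 29.1 to 120.2 and 9.82 to 52.2, with Gzma as the most abundant gene. It held the lowest hepatocyte markers, 69912, the lowest xenobiotic cytochrome P450s, 4222, and the fewest reads of the 32 libraries, 1672314. Gzma, granzyme A (1.30 ± 0.34), and Ly6c2, a surface protein of inflammatory monocytes (1.04 ± 0.28), were called higher with all livers. Without D389094 they were at 0.99 (adjusted p = 0.18) and 0.72 (adjusted p = 0.258). The part of other cell types in the genotype difference was not tested.

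Among the remaining markers, T cells (4 tested, median 0.43), neutrophils (5, 0.43), macrophages and Kupffer cells (11, 0.12), stellate cells (8, 0.24), endothelial cells (10, 0.01), red cells (4, 0.07), B cells (2, -0.52) and pancreas (1, -0.16) had no call between genotypes. No kidney or skeletal muscle marker passed the filter on low counts, and none of the 5 sex genes was called. Of the 7 T cell markers 4 were tested, and a gene could pass the filter on low counts through 1 group alone. All 4 rose with NDMA in Mgmt-/- livers and 3 in WT livers, where 8.72% and 5.22% of all genes rose. Passing through the NDMA livers would favour such rises, so these counts are a description. The summed T cell markers, with Cd3g the most abundant, were 15.2 to 51.2 in WT NDMA and 25.2 to 73.7 in Mgmt-/- NDMA livers, which overlapped.

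Most interferon-inducible GTPases and type I interferon effectors tested were called higher with NDMA in both genotypes. The interferon lists had 1 call between genotypes. Of 19 interferon-inducible GTPases, which attack the vacuoles of intracellular pathogens, 16 rose with NDMA in WT livers and 18 in Mgmt-/- livers. Over all genes 5.22% and 8.72% rose. None of the 19 was called between genotypes (median -0.06), where 1.25% of all genes were called. Igtp went from at most 140.3 in saline livers to 93.7 to 592 in WT NDMA and 189.9 to 663 in Mgmt-/- NDMA livers (-0.09 ± 0.28, adjusted p = 0.94). Iigp1 was at 281 to 1671 and 389 to 1224 (-0.36 ± 0.24, adjusted p = 0.57). The SEs of these genes leave room for differences of the size called elsewhere, so the tests do not show that the genotypes were equal.

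Of 31 type I interferon effectors, 19 rose in WT and 27 in Mgmt-/- livers, where 5.22% and 8.72% of all genes rose. Ifi27l2a, an interferon-induced mitochondrial protein, was the 1 called between genotypes, at 30.7 to 85.5 in WT NDMA and 59.3 to 200.3 in Mgmt-/- NDMA livers (0.69 ± 0.18, adjusted p = 0.046), and was at 0.52 without D389094 (adjusted p = 0.195). None of 20 genes of interferon signalling and feedback was called (median -0.00). With NDMA 6 of these 20 rose and 1 fell in WT livers, and 6 rose in Mgmt-/- livers. None of 15 genes of MHC class I presentation was called between genotypes (median 0.20), of which 11 rose in WT and 10 in Mgmt-/- livers. With library totals 2 of these 15 were called higher. Class I genes outside that list, named after their values were seen, were called higher: H2-T22 (0.76), H2-T9 (0.75) and H2-Q7 and H2-Q9 (1.01 each, from identical reads). Without D389094 only H2-T9 of these was called (0.63, adjusted p = 0.0484). B2m, the light chain of class I molecules, was at 2354 to 3423 in WT NDMA and 2226 to 5895 in Mgmt-/- NDMA livers (0.43 ± 0.18, adjusted p = 0.26). Of 16 chemokines and cytokines Icam1, the adhesion receptor for leukocytes, was called (45.7 to 76.0 against 74.9 to 158, 0.74 ± 0.17, adjusted p = 0.019), and was at 0.61 without D389094 (adjusted p = 0.0869). The acute phase proteins had no call in 19 (median -0.17).

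Among the DNA repair genes tested Mgmt was the 1 called between genotypes, where 1.25% of all genes were called. Calls that were not made do not show equal levels. Of 24 genes of direct reversal, base excision and mismatch repair, Mgmt was the only call (median 0.13). None was called of 21 genes of break repair and damage signalling (median 0.05) or of 12 genes of translesion synthesis and nucleotide excision repair (median 0.34). With NDMA, in the order of these lists, 1, 0 and 2 rose in WT livers and 1, 3 and 3 in Mgmt-/- livers, while 0, 0 and 1 fell in WT livers and 1, 1 and 0 in Mgmt-/- livers. Over all genes 5.22% rose and 4.0% fell in WT livers, and 8.72% rose and 8.86% fell in Mgmt-/- livers. Ercc5, the endonuclease XPG, rose in both genotypes, by 0.87 in WT and 0.93 in Mgmt-/- livers, and its genotype difference was 0.16. Xrcc6, the Ku70 subunit of end joining, was at 15.4 to 20.7 in WT NDMA and 7.77 to 16.1 in Mgmt-/- NDMA livers, but its difference of -0.58 ± 0.21 did not pass (adjusted p = 0.17). Within 10 Mb on either side of Mgmt, 131 of 245 genes measured were tested and none was called under saline or NDMA. Over all genes 0.00995% and 1.25% were called, so few or no calls would be found among 131 genes in any case. At an unadjusted p under 0.05 in edgeR there were 3 and 13 of these 131 genes, and 362 and 1290 of all 10047.

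Of the cell division genes 1 was called, where 1.25% of all genes were called. Ube2c, the ubiquitin-conjugating enzyme of the anaphase-promoting complex, was that gene among 20 tested (1.92 to 13.6 in WT NDMA against 12.6 to 20.5, 1.16 ± 0.30), while all 20 had a log2 fold change above 0 (median 0.50). Without D389094 Ube2c was not called (adjusted p = 0.0683), and in run 200803Eng the median of the 15 members tested was -0.02, and -0.30 without D209072 and D209077. None rose with NDMA in WT livers and 5 rose in Mgmt-/- livers, where 5.22% and 8.72% of all genes rose. Of 20 genes of DNA replication, Rrm2, the small subunit of ribonucleotide reductase, was called (47.6 to 92.6 against 59.3 to 143, 0.79 ± 0.19), with a list median of 0.16, and was not called without D389094 (0.77, adjusted p = 0.0603). No member was called between genotypes of the lists of cholesterol synthesis and uptake (16 tested, median -0.19), fatty acid oxidation and lipid droplets (19, -0.14), immediate early and AP-1 genes (11, 0.32), the growth hormone and IGF axis (11, -0.35), oncofetal and imprinted genes (8, -0.28) and liver transcription factors (14, -0.17).

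**Figure D3:**
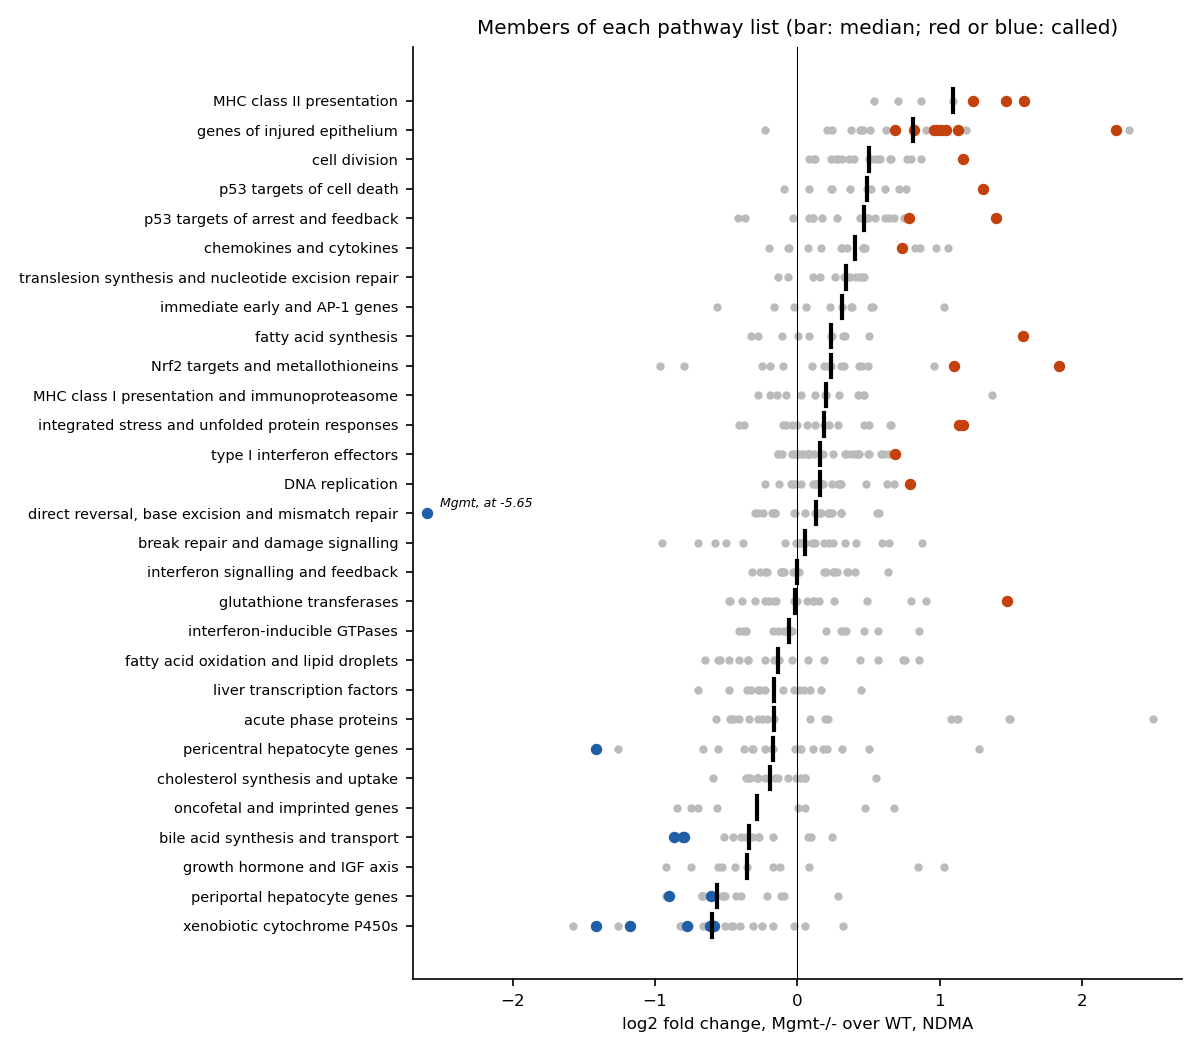
Log2 fold change of Mgmt-/- over WT livers under NDMA for the tested members of 29 pathway lists, one row per list. Each point is a gene, red where called higher, blue where called lower and grey otherwise, and the bar is the list's median (0.81 for genes of injured epithelium, -0.60 for xenobiotic cytochrome P450s). Mgmt is drawn at the edge and labelled with its value.

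How the called genes had moved from saline is given as a description, because each of these effects shares its NDMA livers with the comparison that chose the genes. Of the 59 genes higher in Mgmt-/- livers, 56 rose with NDMA in Mgmt-/- livers. Among them 30 also rose in WT livers and 26 were not called there. Their median was 0.92 in WT, 2.02 in Mgmt-/- and -0.11 between genotypes under saline. Of the 67 lower genes, 58 fell with NDMA in Mgmt-/- livers, 7 of which fell in WT livers too, 50 were not called in WT and 1 rose there. In all, 4 of the 67 rose in WT livers, namely Spp1, Hal, Fam13a and Arl13b, of which Arl13b is named after its value was seen. The median of the 67 was -0.11 in WT, -1.0 in Mgmt-/- and 0.15 under saline. All 126 interactions had the sign of the genotype difference under NDMA, and 53 had an adjusted p under 0.1. Few of the called genes separated every liver: 14 of the 126 had NDMA groups that did not overlap, where over all 10047 genes tested 17 did, 10 with Mgmt-/- above and 7 below.

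A second run of the same day, 200803Eng, held other mice: 4 Mgmt-/- NDMA, 6 WT NDMA and 4 saline livers of each genotype. Its libraries were shallower, from 583033 to 3778905 reads. In 2 of the 6 WT NDMA libraries, D209072 and D209077, Xist and Ddx3y went against the labelled sex, and Cdkn1a was at 20.9 and 11.1 reads per 1000000 of the unscaled library total, against 228 to 311 in the other 4. The WT saline liver D209074 held Cdkn1a at 263, against 8.09 to 20.4 in the other 3. These 3 libraries thus have Cdkn1a at the level of the other treatment, so their labels are in doubt and the counts of this run are uncertain. With all libraries as labelled, 9 of 7324 genes were called between genotypes under NDMA (0.123%), and 291 genes responded to NDMA in Mgmt-/- livers (3.97%). In WT livers 0 genes were called for the NDMA effect by edgeR, DESeq2 or limma, with 218 at an unadjusted p under 0.05 in edgeR. The 9 calls between genotypes were Mgmt (-4.59), Spp1 (-2.02), Cyp2c69 (-1.89), Lect2 (-1.41) and Hpgd (-1.35) on the lower side and Cxcl17 (2.30), Hamp (2.05), Jun (1.88) and Slpi (1.63) on the higher. With D209072 and D209077 left out 3 were called, 1 higher and 2 lower, and the NDMA effect had 15 calls in WT and 577 in Mgmt-/- livers. D209074 stayed in that fit as WT saline.

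Spp1 again separated the genotypes in this run. Levels of this run are per 1000000 reads of the unscaled total and are not on the TMM scale used above. Spp1 was at 30.7, 67.7, 30.1 and 34.5 in Mgmt-/- NDMA livers and at 263, 156, 80.7 and 194 in the 4 WT NDMA livers whose sex genes matched. The 2 other libraries labelled WT NDMA held 98.2 and 103. Cox6b2 was at 189.9 to 248 in Mgmt-/- NDMA livers and at 74.4 to 95.0 in those 4 WT livers, and its log2 fold change of 1.67 did not pass with all libraries (adjusted p = 0.19). Of the genes called in run 191212Eng and tested in both, Mgmt left out, 44 of 48 higher genes and 61 of 62 lower genes had the same sign in run 200803Eng, where 59.1% of all 7239 genes tested in both runs did. Their medians there, with Mgmt counted in the second, were 0.74 and -0.92. These values include D209072 and D209077, whose Cdkn1a was at the saline level. Without these 2 libraries 40 of 48 higher genes (median 0.50) and 56 of 61 lower genes (median -0.55) had the same sign, where 55.8% of all 7148 genes did. With all libraries Rrm2 (-0.25), Ly6c2 (-0.14), Tubb2a (-0.13), Tubb6 (-0.02) and Erbb3 (0.18) had the opposite sign. Without the 2 libraries Cd74, H2-Aa, Icam1 and Mat1a, the last named after its value was seen, were also among those with the opposite sign.

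**Figure D4:**
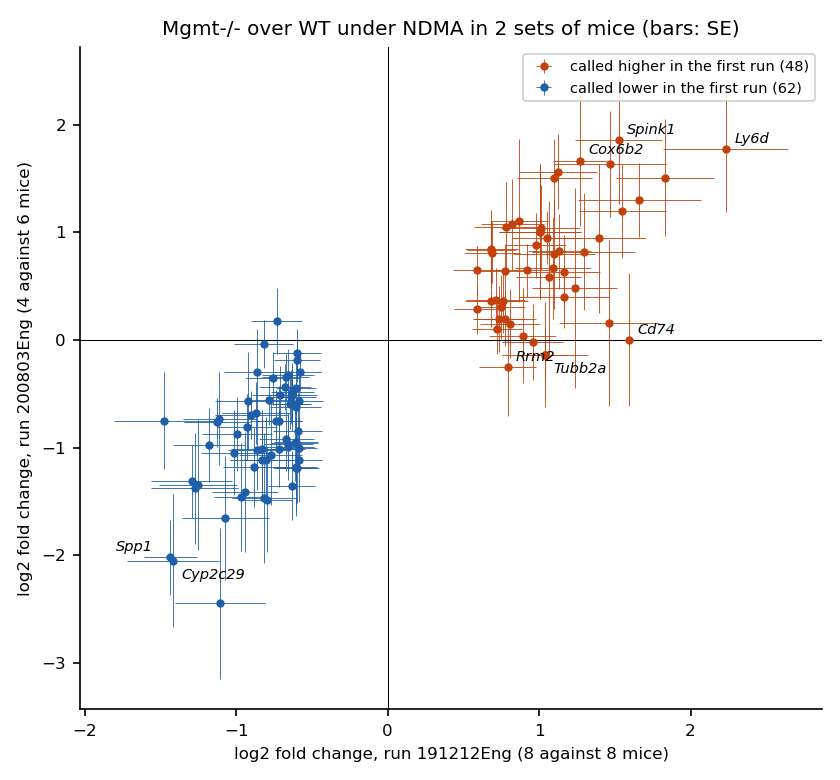
Log2 fold change of Mgmt-/- over WT livers under NDMA in run 191212Eng (x, 8 livers per genotype) and in run 200803Eng (y, 4 Mgmt-/- and 6 WT livers), with standard errors, for 48 genes called higher (red) and 62 called lower (blue) in the first run. Of these, 44 and 61 lie on the same side of 0 in both, with the 2 libraries whose sex genes contradict their labels included.

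Leaving out each of the 32 livers in turn kept the sign of all 126 genotype differences and of all 14 interactions. The number of genes called under NDMA ranged from 36 without D389094 to 191 without the Mgmt-/- NDMA liver D389070, and 32 of the 126 genes were called in all 32 fits. It fell to 53, 56, 71 and 76 without the WT NDMA livers D389026, D389091, D389085 and D389087. Those called throughout included Mgmt, Spp1, Cox6b2, Spink1, Ly6d, Tubb2a, Tubb6, S100a10, Psrc1, Ddit3, Nupr1, Cbr3, Elovl6, Pdrg1, Cyp2b13, Cyp8b1, Slc10a1 and Gpld1. Hal and Fam13a were called in 7 fits each, and Cyp3a25 and Gzma in 8. The interaction was less settled, with between 1 and 78 calls and a median of 2.5, and Spp1 was the only gene called in all 32 fits. In males alone, 4 per group, all 126 genes kept the sign of the genotype difference and 2 were called. In females alone all 122 tested kept it and 31 were called. The fits by sex and those with 1 liver left out reuse the livers that chose the genes. The kept signs are therefore a description and no separate support.

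**Figure D5:**
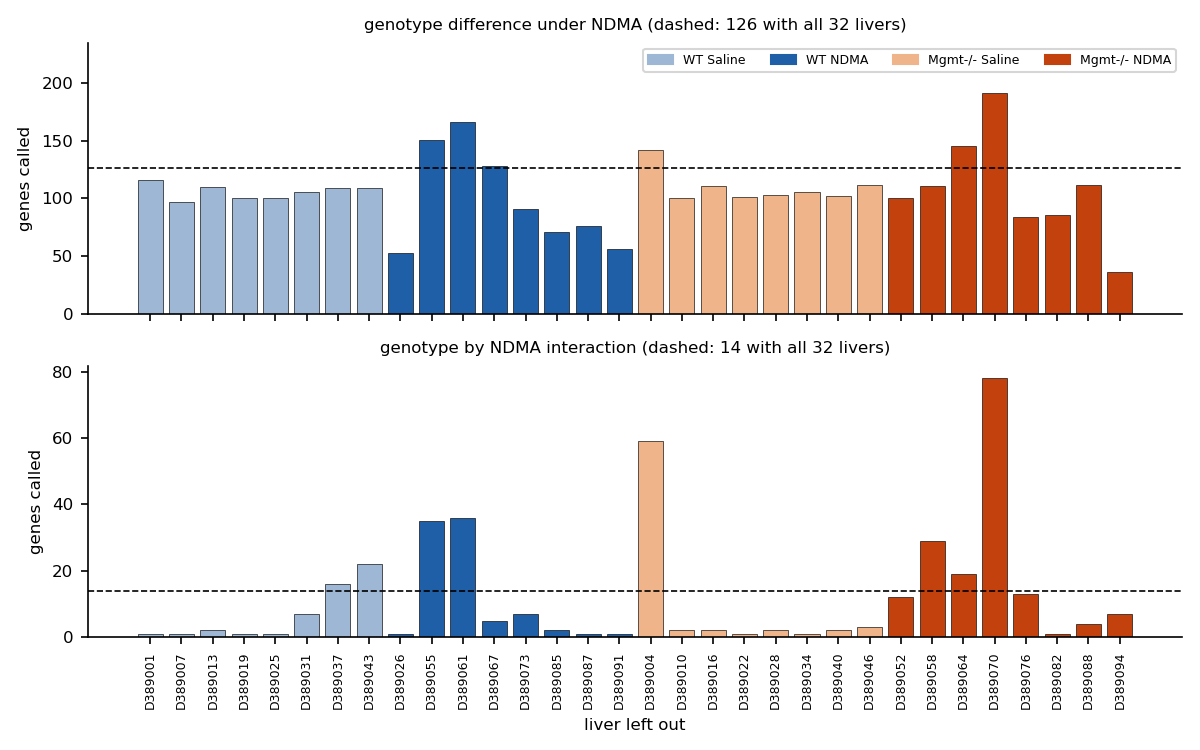
Number of genes called between genotypes under NDMA and for the interaction when each of the 32 livers is left out in turn, by the liver left out. Dashed lines mark the counts with all livers, 126 and 14, and the lowest count under NDMA is 36 without D389094.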

How the data were processed

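Each liver's poly(A) RNA gave 1 library of 3′ tags with molecular identifiers, sequenced on a NextSeq500. The authors' processing used STAR on the GRCm38 (mm10) genome and ESAT for gene counts, and they deposited, for each genotype in a separate table, gene counts divided by DESeq2 size factors, a signal scaled per table, with versions not given in the sources used here. Whole reads were recovered by dividing each deposited signal value by the smallest positive value of its column. Every value came out whole within a tolerance of 0.001 (largest deviation 0.000232), and all columns were mapped to samples. The 18287 symbols shared by the tables (of 18647 and 19540) were joined and normalized together, and none of the authors' fold changes was used. No libraries of a group agreed within sampling noise (smallest chi-square per degree of freedom 3.95 over 112 pairs).

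Tests used edgeR 4.0.16 in R 4.3.3 (TMM, filterByExpr, robust quasi-likelihood F-test) with 4 groups and sex as terms. The tested reads were recovered from that signal. Nothing in the labels says more of the replicates than that each is a mouse, so p-values measure the spread between these livers. limma 3.58.1 (log2 of RPM plus 1, 0.5 or 5) and DESeq2 1.42.0 were alternatives, as were other scalings, filters, thresholds, sexes and runs. On simulated reads of the 10047 genes the genotype difference under NDMA recovered 66% of 2-fold and 98% of 4-fold changes, with 4.65% of calls false. The interaction recovered 41% and 87%, with 4.48% false. The simulated livers were independent draws with no liver that stood apart as D389094 did, so these shares need not hold for the data. Genes named were the called genes of the interaction, called list members (at most 6 a list for the rule, and those beyond it named after their values were seen) or else each list's most abundant members, genes near Mgmt and sex genes. Cyp2e1, Glul, Cdkn1a, Ccng1, Phlda3, Bax, Slc25a30 and Cyp2a12 and the calls of the other run were named after their values were seen. The members and all lists were chosen with earlier results of these data known. Some items are not reported here. Coordinates are from the GENCODE vM21 annotation of GRCm38. Marker sums and calls are also given without the liver D389094, chosen after seeing the data. Figures were drawn with matplotlib 3.10.9.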

Additional observations from a re-analysis of the deposited data

Results flagged for a closer look

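In 10 of 112 groups of 8 livers checked, 1 liver lay farther from the others than Dixon's 95% limit on the log2 scale, where chance gives about 1 in 20. In WT saline livers Gpld1 was low in D389001 (118 RPM). In WT NDMA livers Cox6b2 was low in D389087 (34.6) and S100a6 high in D389061 (43.7). In Mgmt-/- saline livers Fabp2 (232) and Slc10a1 (475) were low in D389004, Mgmt was high in D389010 (4.20, from 12 reads), and the summed hepatocyte markers were high in D389046 (209310). In Mgmt-/- NDMA livers Cyp2b13 (2.99) and Cyp2c29 (136) were low in D389094, and the summed kidney markers were 0.598 in D389058 beside 0 in most others.

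The NDMA effect differed between the genotypes, by the interaction term, for 14 genes. Of these only Spp1 was called in all 32 fits that each left out 1 liver. It was more negative in Mgmt-/- livers for Cyp2c29 (-2.15), Cyp2b13 (-1.47), Fam13a (-1.46), Spp1 (-1.46), Slc10a1 (-1.09), Gpld1 (-1.04), Cyp2a12 (-1.02) and Klkb1 (-0.85). It was more positive for Slc25a30 (2.29), Spink1 (2.00), S100a6 (1.84), Cox6b2 (1.47), Pdrg1 (1.08) and Fabp2 (0.94).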

How the results depend on the processing

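Against 126 genes called under NDMA, a fit of only the 2 NDMA groups called 60, males alone 2, females alone 75, both runs with run as a term 316, run 200803Eng alone 9, and an absolute log2 fold change over 1 left 52. RLE scaling (114), DESeq2 (174), limma (122) and no sex term (112) stayed within 1.5 times. The interaction moved under the most settings: against 14, RLE scaling called 6, library totals 45, no filter 6, DESeq2 124, limma 23 (6 with 0.5 added and 35 with 5 added), males 0 (662 at an unadjusted p under 0.05), females 4, both runs 52 and run 200803Eng 0 (474 unadjusted). Under saline DESeq2 called 4. The NDMA effect in WT had 926 calls, with 487 in males, 384 in females, 0 in run 200803Eng and 479 past a log2 fold change of 1. That in Mgmt-/- had 1766, with 1090, 291 and 880 in males, run 200803Eng and past 1. Near Mgmt, library totals called 1, no filter 1, both runs 2 and no fold threshold 2. In run 200803Eng the 9 calls became 3 without the 2 libraries against their labelled sex, 219 with DESeq2 and 5 with limma, and its interaction had 2 with DESeq2.

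Leaving out each liver gave 36 to 191 calls under NDMA, 1 to 2 under saline (Slc25a30 joined Mgmt without D389010) and 1 to 78 for the interaction, which exceeded 1.5 times its count without D389070 (78), D389004 (59), D389061 (36), D389055 (35), D389058 (29) and D389043 (22) and fell below it in 22 of 32 fits. It gave 823 to 982 calls in WT, 1512 to 1915 in Mgmt-/-, 0 to 3 near Mgmt, and in run 200803Eng 2 to 540 under NDMA (540 without D209092) and 0 to 1 for the interaction. Under library totals list medians shifted with the all-gene median (0.15 under NDMA). The shift exceeded the spread between livers for direct reversal, base excision and mismatch repair (interaction 0.13), translesion synthesis and nucleotide excision repair (0.47 under NDMA, interaction 0.36), Nrf2 targets and metallothioneins (interaction 0.33), integrated stress and unfolded protein responses (0.32 and 0.32) and endothelial cell markers (0.16 and 0.18). The medians of glutathione transferases (0.13), interferon-inducible GTPases (0.07), interferon signalling and feedback (0.14), fatty acid oxidation and lipid droplets (0.0026) and sex genes (0.05) turned positive. Calls became 11 for genes of injured epithelium, 5 for MHC class II presentation, 3 each for cell division and p53 targets of cell death, 4 for xenobiotic cytochrome P450s and 0 for periportal hepatocyte genes. Without D389094 the genes of injured epithelium had 4 calls (median 0.52), xenobiotic cytochrome P450s 2 (-0.52), bile acid synthesis and transport 2, periportal hepatocyte genes 0 (-0.50), p53 targets of arrest and feedback 1 (0.43) and p53 targets of cell death 0 (0.39). The genes with the opposite sign in run 200803Eng, with all its libraries, were Rrm2 (-0.25), Ly6c2 (-0.14), Tubb2a (-0.13), Tubb6 (-0.016) and Erbb3 (0.18). The cause of these moves was not tested.

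No paired analysis was possible because no replicate number occurs in more than 1 group. Leaving out libraries against their labelled sex, or with values that were not whole multiples, was not run because run 191212Eng held none. At these depths genes of a few RPM rest on a few reads in the shallowest livers.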

Other observations

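The genes in these paragraphs lie outside the lists and were chosen after their values were seen. Among the genes lower in Mgmt-/- livers under NDMA were Ahcy, which clears S-adenosylhomocysteine (log2 fold change -1.11, adjusted p = 0.014 in edgeR), and Mat1a, the liver enzyme that makes S-adenosylmethionine (-0.82, adjusted p = 0.018). Mat1a was at -0.04 in run 200803Eng, and had the opposite sign there without D209072 and D209077. Hpd of tyrosine breakdown was at -0.94, and Afmid of tryptophan breakdown at -0.97. Dbt, a subunit of the branched-chain ketoacid dehydrogenase, and Ppm1k, the phosphatase that activates that complex, were at -0.78 and -1.13. The amino acid carriers Slc38a3 and Slc38a4 were at -0.64 and -0.76, and Dpys and Upb1 of pyrimidine breakdown at -0.67 and -0.66. Without D389094 Mat1a (adjusted p = 0.0603), Hpd (0.0532), Slc38a3 (0.112), Slc38a4 (0.0603), Dpys (0.142) and Upb1 (0.0755) were not called.

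Among the higher genes, Tnfrsf12a, the receptor for the cytokine TWEAK, was at 1.55 (adjusted p = 0.008), Ly6a, a surface protein of the same family as Ly6d, at 1.06, Timp1, an inhibitor of matrix proteases, at 2.10 (adjusted p = 0.049), and Manf, a secreted protein of endoplasmic reticulum stress, at 0.69. Ddit4l, a stress-induced inhibitor of mTOR signalling, rose with NDMA in both genotypes (4.07 and 4.48), and its genotype difference was 0.87 with no overlap. Gzmb, granzyme B, was at 1.5 (adjusted p = 0.049). Timp1 was called in 6 and Gzmb in 8 of the 32 fits that each left out 1 liver, and without D389094 their adjusted p was 0.146 and 0.262. Manf was not called without it (adjusted p = 0.0603). Wif1, a secreted Wnt inhibitor, was called lower. It lay between 0 and 4.91 RPM in WT NDMA and between 0 and 0.247 in Mgmt-/- NDMA livers, so its fold change rests on very few reads. Without D389094 its adjusted p was 0.059. Reads of H2-Q7 and H2-Q9 were identical, and both are counted among the 126 genes called.

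A test of whether the genotype difference under NDMA differed between the sexes called 2 genes, Rps9 (-1.47) and Rps26 (-1.64), with an adjusted p of 0.0117 each in edgeR. Before adjustment 1033 genes had a p under 0.05. The summed kidney markers reached 13.4 RPM in WT saline and 10.1 in Mgmt-/- saline livers, and at most 1.04 in NDMA livers.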
